A study of Mus musculus with 36 samples.

Results

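The 10 genes described here belong to the circadian clock. They are Per1, Per2, Cry1, Clock, Nr1d1, Dbp, Tef, Nfil3, Ciart and Bhlhe40, out of 23067 genes with a symbol in the RNA counts. They were chosen by name, and each gene was represented by the RefSeq transcript with its highest mean count over 12 libraries. The genes had 12 of the 30048 rows of counts, because Per1 and Tef had 2 rows each with nearly the same reads.

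Cartilage was microdissected from the tibial and femoral surfaces of the knees of male C57BL/6J mice, 4 or 12 weeks after surgery in which the medial meniscus of the right knee was destabilized (DMM) at 12 weeks of age to induce osteoarthritis. The unoperated left knees of the same mice were the controls, so the control limbs came from animals that had also had surgery, and there was no sham-operated group. Each library pooled the tissue of 3 knees, and there were 3 RNA libraries for each limb at each week. DNA for 5-methylcytosine (5mC) and 5-hydroxymethylcytosine (5hmC) came from other mice than the RNA. The hour of tissue collection is not given in the sources used here, and the replicates are pools, so the p-values measure the spread between pools.

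The clock is a feedback loop of transcription that runs with a daily period in most tissues, cartilage included. Clock and its partner Arntl (Bmal1) bind E-box sequences and activate genes that include the Per and Cry repressors, which then shut off that activation. Nr1d1 (REV-ERB alpha) represses Arntl, and Dbp and Tef activate genes with D-box sequences, which Nfil3 represses. The transcripts of these genes therefore peak at different hours of the day, with Dbp, Nr1d1, Ciart and Tef on one side of the cycle and Arntl and Nfil3 on the other.

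To show the sequences through which the genes are connected, the 250 bases upstream of each start were searched on both strands for the E-box CACGTG, the E-prime box CACGTT, the D-boxes TTATGTAA and TTACGTAA, the REV-ERB and ROR core TAGGTCA and the cyclic AMP response element TGACGTCA. The RefSeq promoters (GRCm38.p6) held 8 of the 10 genes, at the start of the transcript counted here. Per2 and Bhlhe40 had no entry. At least 1 element was present in 6 genes. The stretches that held them are given from 5′ to 3′ on the strand of the gene, with the elements in capitals (AACGTG and TGACCTA are CACGTT and TAGGTCA read on the other strand).
Per1, chr11:69098753-69098818, + strand, E-box: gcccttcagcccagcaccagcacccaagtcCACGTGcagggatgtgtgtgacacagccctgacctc
Cry1, chr10:85185079-85185163, - strand, E-prime box then E-box: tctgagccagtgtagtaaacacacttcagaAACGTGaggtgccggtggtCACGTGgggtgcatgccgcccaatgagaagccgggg
Nr1d1, chr11:98775378-98775435, - strand, E-prime box: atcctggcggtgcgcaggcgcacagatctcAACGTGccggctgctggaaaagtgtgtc
Tef, chr15:81811246-81811311, + strand, E-box: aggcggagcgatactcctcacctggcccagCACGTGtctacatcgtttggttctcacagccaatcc
Nfil3, chr13:52981040-52981081, - strand, REV-ERB and ROR core: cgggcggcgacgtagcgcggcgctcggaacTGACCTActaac
Ciart, chr3:95882237-95882374, - strand, 3 E-boxes: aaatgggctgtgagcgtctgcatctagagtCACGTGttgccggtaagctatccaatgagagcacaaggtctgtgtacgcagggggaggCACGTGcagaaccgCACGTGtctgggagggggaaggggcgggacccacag

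Ciart, a repressor of Clock and Arntl, had the most copies, with E-boxes that began 116, 58 and 44 bases before its start. The single E-box of Per1 began 166 bases and that of Tef 138 bases before the start. In Cry1 the E-box and the E-prime box began 60 and 79 bases before the start. The REV-ERB and ROR core of Nfil3 lay 12 bases before its start. No listed element was found in this window of Clock or Dbp. Among 32817 RefSeq promoters, the same window held the E-box in 6.02%, the E-prime box in 3.85%, a D-box in 0.929%, the REV-ERB and ROR core in 2.24% and the cyclic AMP response element in 1.55%. A match describes these letters only.

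Library totals ranged from 27706547 to 62737656 counts. The tissue label was checked against 10 chondrocyte markers, whose summed level was 15700 to 54900 CPM in every library (CPM, counts scaled by the TMM library size), and no marker was at 0 in any group. Markers of other cells of the joint were also present. The summed level of 8 neutrophil and marrow markers was 8880 to 41900 CPM, that of 8 erythroid markers 5820 to 17100 CPM and that of 10 skeletal muscle markers 71.7 to 17400 CPM. The neutrophil and marrow sum was above the chondrocyte sum in 4-week control replicate 3, 4-week DMM replicate 2 and 12-week control replicates 1 and 3. In bulk tissue, fewer cells of a type and less RNA per cell cannot be told apart. On GRCm38, the genes that separated the limbs at 4 weeks were Cry1 (NM_007771, chr10:85131700-85185054, minus strand) and Clock (NM_007715, chr5:76209868-76304548, minus). Those at 12 weeks were Nr1d1 (NM_145434, chr11:98767932-98775377, minus) and Bhlhe40 (NM_011498, chr6:108660629-108666925, plus). Of all transcripts passing the filter, 21.0% separated the limbs at 4 weeks and 18.7% at 12 weeks. Some reads could also come from other genes on the same DNA. Nr1d1 overlapped Thra by 1075 bp and Dbp overlapped Sphk2 by 741 bp on the opposite strand. Ciart, Bhlhe40 and Per2 also had an antisense neighbor (C920021L13Rik, 0610040F04Rik and Gm35591), and a pseudogene, Ube2n-ps1, lay within Clock on the same strand. Whether the counting used strand is not given in the sources used here, so the reads of such partners cannot be told apart.

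All 10 genes were detected in all 12 libraries and passed the filter on low counts in every comparison. Per kb of transcript, Bhlhe40 and Nr1d1 had the highest levels, with 56.5 ± 19.5 and 54.5 ± 22.2 CPM per kb (SD, n = 12). Bhlhe40, a repressor that competes for E-boxes, was above Nr1d1 in only 8 of the 12 libraries, so the order of these neighbors did not exceed their spread. Dbp followed with 39.9 ± 27.8 and Tef with 23.3 ± 10.9 CPM per kb. The remaining genes were lower, with Nfil3 at 6.65 ± 1.96, Cry1 at 6.49 ± 2.19, Ciart at 3.43 ± 2.12, Per1 at 3.41 ± 1.43, Per2 at 2.82 ± 0.908 and Clock at 1.13 ± 0.383 CPM per kb. Nfil3 was above Cry1 in 6 libraries and Ciart above Per1 in 5, so neither pair could be ordered. Tef was above Nfil3 in all 12 libraries.

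**Figure D1:**
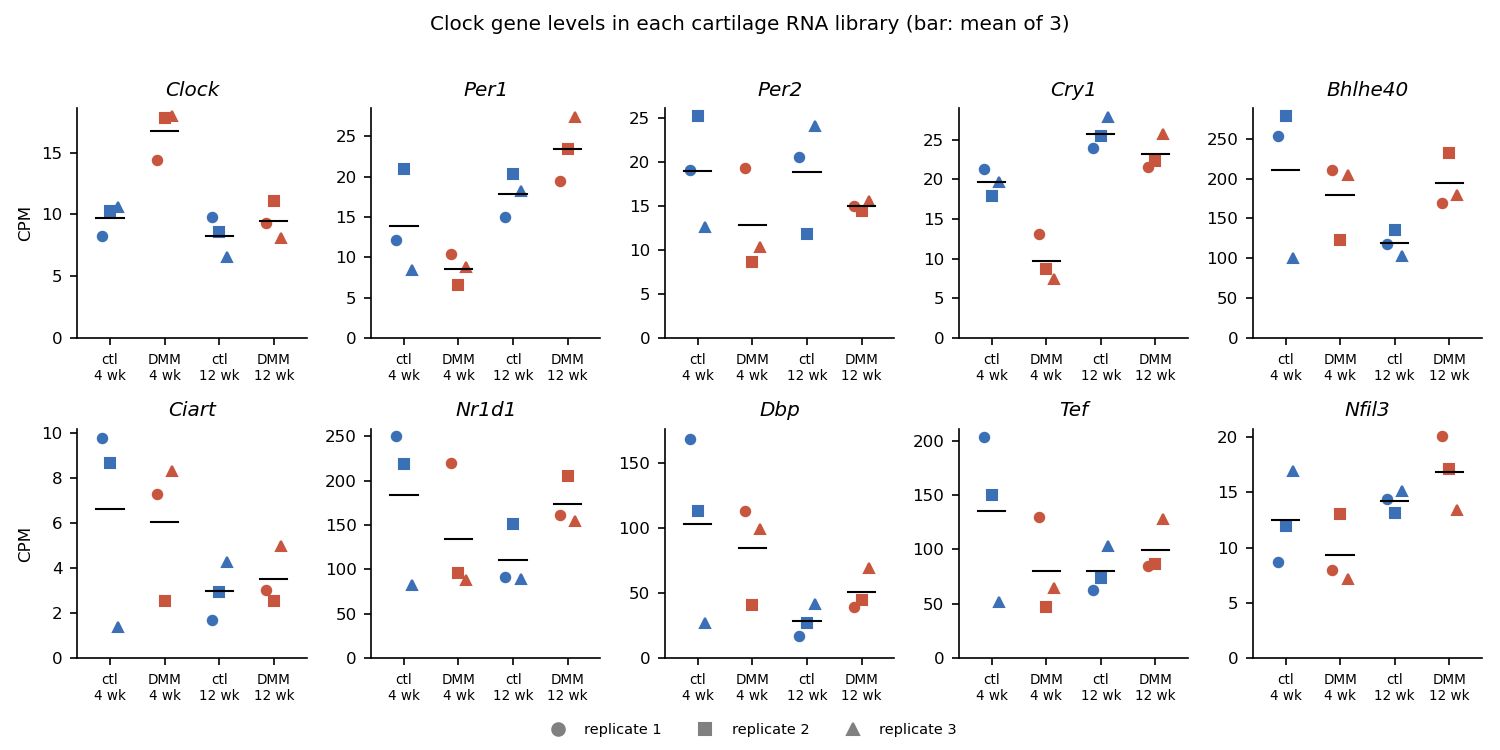
CPM of each of the 10 clock genes in the 12 RNA libraries (vertical axes) by limb and week (horizontal axes). Points are libraries and bars are group means (n = 3). Cry1 and Clock separated the limbs at 4 weeks, where 21.0% of transcripts did. Nr1d1 and Bhlhe40 separated them at 12 weeks, where 18.7% did. The 4-week control libraries of Dbp spread from 27.3 to 169 CPM.

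Dbp, Ciart and Tef varied more between the 4-week control pools than most genes did. Dbp, an activator of D-box genes, measured 169, 113 and 27.3 CPM in the 4-week control libraries (replicates 1, 2 and 3) and 113, 41.3 and 99.2 CPM in the 4-week DMM libraries. At 12 weeks, Dbp was at 16.9, 27.4 and 41.8 CPM in controls and 39.5, 45.2 and 69.5 CPM after DMM. The highest library was 10-fold above the lowest, the widest range of the 10 genes.

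Ciart had a range of 7.00-fold. Its level was 9.77, 8.65 and 1.40 CPM in 4-week controls, 7.28, 2.54 and 8.32 CPM in 4-week DMM, 1.68, 2.94 and 4.29 CPM in 12-week controls and 3.04, 2.56 and 5.0 CPM in 12-week DMM. The lowest value was that of 4-week control replicate 3, as it was among 4-week controls for Dbp. Tef, the other D-box activator, measured 203, 150 and 51.6 CPM in the 4-week controls and 130.0, 47.0 and 64.6 CPM in the 4-week DMM libraries. At 12 weeks, Tef was at 62.5, 73.9 and 103 CPM in controls and 84.9, 86.8 and 128 CPM after DMM, and the limbs overlapped at both weeks.

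Within the 4-week controls, the highest library was 7.00-fold above the lowest for Ciart, 6.20-fold for Dbp, 3.93-fold for Tef and 3.03-fold for Nr1d1. The median over 15564 genes was 1.54-fold, and only 1.54% of genes spread as widely as Ciart and 1.91% as widely as Dbp. Cry1 and Clock were tight in the same pools, at 1.19-fold and 1.29-fold. In 12-week controls Dbp spread 2.47-fold and Ciart 2.55-fold, against a median of 1.36-fold. The 4-week control replicate 3 also had the highest erythroid (17100 CPM) and neutrophil and marrow sums (25400 CPM) and the lowest chondrocyte sum (22300 CPM) of the 4-week controls. The part of these markers in the spread was not tested.

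Some of the clock genes followed Dbp from library to library and others did not. Over the 12 libraries, log2(CPM + 0.1) of Dbp correlated with that of Ciart (r = 0.936), Bhlhe40 (r = 0.805), Tef (r = 0.743) and Nr1d1 (r = 0.611). Outside the members, Per3, the third Period gene, had an r of 0.939 and Bhlhe41, the paralog of Bhlhe40, an r of 0.911. Nfil3, the D-box repressor, and Arntl, the partner of Clock, ran the other way, with r of -0.716 and -0.676. Cry1 (r = -0.34), Per2 (0.225), Clock (0.179) and Per1 (-0.064) followed Dbp little. Of the 21 other clock genes of a fixed list, 14 had an r above 0, with Cry2 at 0.168 and Nampt at 0.213, and 7 had an r below 0, with Csnk1d at -0.337, Btrc at -0.328 and Lonrf3 at -0.753. Of 13538 genes outside the list, 51.2% had an r above 0. Arntl was at 14.4, 13.2 and 24.8 CPM in 4-week controls, highest in replicate 3, where Dbp was lowest. In the 4-week DMM libraries Arntl was at 14.0, 31.6 and 14.8 CPM, highest in replicate 2, where Dbp was again lowest. Nfil3 was highest in the same libraries, with 8.72, 12.0 and 16.9 CPM in controls and 7.95, 13 and 7.13 CPM after DMM. At 12 weeks Nfil3 was at 14.4, 13.1 and 15.1 CPM in controls, highest where Dbp was highest. After DMM it was at 20.1, 17.1 and 13.4 CPM, in the reverse order of Dbp. Arntl was lowest in replicate 3 of both limbs at 12 weeks, where Dbp was highest. Bhlhe40 did not follow the order of Dbp in either limb at 12 weeks. The points of these correlations are the same 12 pools, with their shared depth and tissue makeup. They span both weeks and limbs, so r includes differences between group means, and the values are descriptions.

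Outside a fixed list of clock genes, the genes most like Dbp among 13538 compared were Manbal (r = 0.927), Cys1 (0.927), Gdf6 (0.917), Lefty1 (0.915) and Sat2 (0.915). Gdf6, a growth factor of the bone morphogenetic protein family, measured 14.5, 7.60 and 1.60 CPM in the 4-week controls, in the same order as Dbp. In the 12-week controls it was at 0.758, 1.0 and 1.52 CPM, again in the order of Dbp. In the DMM limb it was at 7.40, 2.92 and 7.59 CPM at 4 weeks, lowest where Dbp was lowest, and at 5.92, 3.71 and 3.68 CPM at 12 weeks, in the reverse order of Dbp.

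**Figure D2:**
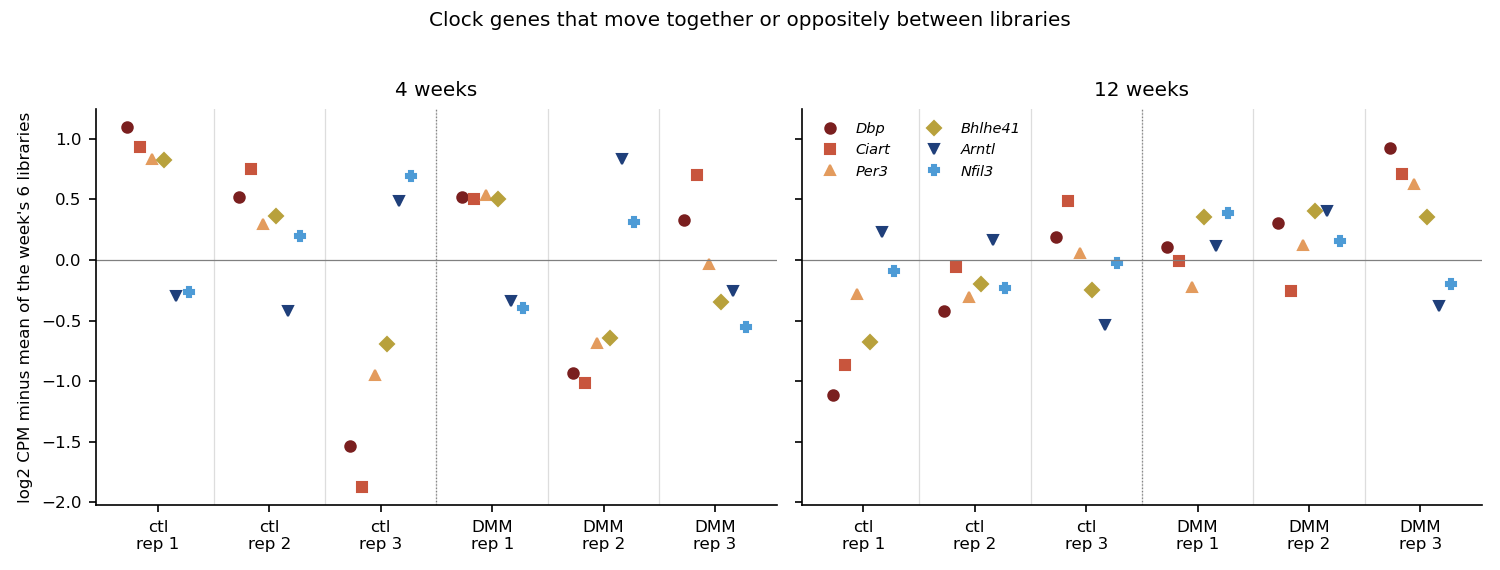
Level of Dbp, Ciart, Per3, Bhlhe41, Arntl and Nfil3 in each of the 12 libraries (horizontal axis, by week, limb and replicate), as log2 CPM minus the mean of the 6 libraries of the week (vertical axis). Markers are single libraries, and Dbp, Ciart, Per3 and Bhlhe41 were low together in 4-week control replicate 3 and 4-week DMM replicate 2, where Arntl and Nfil3 were high.

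To evaluate early disease, DMM and control limbs were compared at 4 weeks. Cry1 was lower and Clock higher in every DMM library than in every control library. None of the 10 genes passed an adjusted p of 0.05 in edgeR's quasi-likelihood test, where 0.0757% of 21140 transcripts did. At an unadjusted p of 0.05, 2 of the 10 genes passed in edgeR, beside 13.7% of transcripts. The median log2 fold change of the genes was -0.43, with 9 of 10 below 0, and the median over all transcripts was -0.03, with 47.5% above 0.

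Cry1, a repressor of Clock and Arntl, measured 21.3, 17.9 and 19.6 CPM in controls and 13.1, 8.70 and 7.50 CPM after DMM. The limbs did not overlap, and the log2 fold change was -1.0 ± 0.26 (SE), with an adjusted p of 0.252 in edgeR and 0.0172 in DESeq2. Clock, the activator, measured 8.27, 10.3 and 10.6 CPM in controls and 14.4, 17.8 and 18.0 CPM after DMM. Its limbs did not overlap either, with a log2 fold change of 0.78 ± 0.21 and an adjusted p of 0.252 in edgeR and 0.0295 in DESeq2. DESeq2 thus called 2 of the 10 genes where it called 3.44% of transcripts. For both genes the exact permutation p was 0.1, the smallest that 3 libraries against 3 allow. Limbs without overlap were found in 2 of the 10 genes and in 21.0% of all transcripts passing the filter.

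Per1, which represses with Cry1, was at 12.2, 20.9 and 8.39 CPM in controls and 10.4, 6.61 and 8.84 CPM after DMM. Per2 was at 19.1, 25.3 and 12.6 CPM in controls and 19.4, 8.68 and 10.4 CPM after DMM. Their log2 fold changes were -0.68 ± 0.35 and -0.56 ± 0.37, and the limbs overlapped for both. The other 6 genes had log2 fold changes between -0.73 (Tef) and -0.12 (Ciart), with adjusted p from 0.501 to 0.941 in edgeR. Marker sums moved with the limb at this week. The 8 fibroblast and synovium markers summed to 3650 to 11900 CPM in controls and 14200 to 20000 CPM after DMM. The muscle sum was 4610 to 17400 CPM in controls and 446 to 2710 CPM after DMM. The sum of 8 osteoblast and osteocyte markers was 6140 to 6670 and 8050 to 10400 CPM, and that of 6 adipocyte markers 155 to 174 and 176 to 274 CPM. The limbs overlapped in the chondrocyte sum, at 22300 to 54900 and 18000 to 28600 CPM. No marker was at 0 in either limb, and the part of these markers in the limb differences was not tested.

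At 12 weeks, in established disease, 8 of the 10 genes had a fold change above 0 and Nr1d1 and Bhlhe40 were higher in every DMM library than in every control. None passed an adjusted p of 0.05 in edgeR, where 0.00476% of 21010 transcripts did. At an unadjusted p of 0.05, 3 of the 10 genes passed, beside 16.3% of transcripts. The median log2 fold change was 0.29 over the 10 genes and 0.01 over all transcripts, of which 51.5% were above 0.

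Bhlhe40 measured 118, 136 and 103 CPM in controls and 170.0, 232 and 180.0 CPM after DMM. The log2 fold change was 0.71 ± 0.17, with an unadjusted p of 0.00299 and an adjusted p of 0.211 in edgeR. In DESeq2 the adjusted p was 0.00843, which made Bhlhe40 the only one of the 10 genes called, beside 4.24% of transcripts. Nr1d1, the repressor of Arntl, measured 91.7, 151 and 88.8 CPM in controls and 161, 205 and 155 CPM after DMM. Its log2 fold change was 0.66 ± 0.23, with an adjusted p of 0.263 in edgeR. Without 12-week control replicate 2, the highest of the controls, the adjusted p of Nr1d1 was 0.0377 in edgeR. In that fit Nr1d1 was the only one of the 10 genes called, beside 4.04% of transcripts. Leaving out the control nearest the DMM values widens the difference by itself, so that fit is a description only. Limbs without overlap were again found in 2 of the 10 genes, and in 18.7% of all transcripts passing the filter.

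Dbp had a log2 fold change of 0.84 ± 0.34, with an adjusted p of 0.291 in edgeR, and its limbs overlapped. With the replicate number as a block, the adjusted p in edgeR was 0.0433 for Nr1d1, 0.0352 for Dbp and 0.0364 for Bhlhe40. It was at least 0.131 for the other members. The block also called more of all transcripts, with the numbers given in the closing section, so these calls are a description only. Whether the numbers of the replicates pair the limbs is not known. Per1 was at 15.0, 20.3 and 18.2 CPM in controls and 19.4, 23.4 and 27.4 CPM after DMM, a log2 fold change of 0.40 ± 0.17 with overlapping limbs. Cry1 measured 24, 25.4 and 27.9 CPM in controls and 21.5, 22.3 and 25.7 CPM after DMM, and Clock 9.76, 8.56 and 6.55 CPM and 9.32, 11.1 and 8.10 CPM, so neither separated the limbs at this week. Per2 had the lowest value, -0.32 ± 0.25, with 20.6, 11.9 and 24.1 CPM in controls and 15.0, 14.5 and 15.6 CPM after DMM. Tef, Nfil3 and Ciart had log2 fold changes of 0.33, 0.26 and 0.26. The fibroblast and synovium sum was again apart between limbs, at 3660 to 6520 CPM in controls and 7860 to 13000 CPM after DMM. The macrophage sum was also apart, at 358 to 404 and 306 to 350 CPM. The neutrophil and marrow sum overlapped, at 25000 to 41900 and 20100 to 32700 CPM, and no marker was at 0. Their part in the limb differences was not tested.

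**Figure D3:**
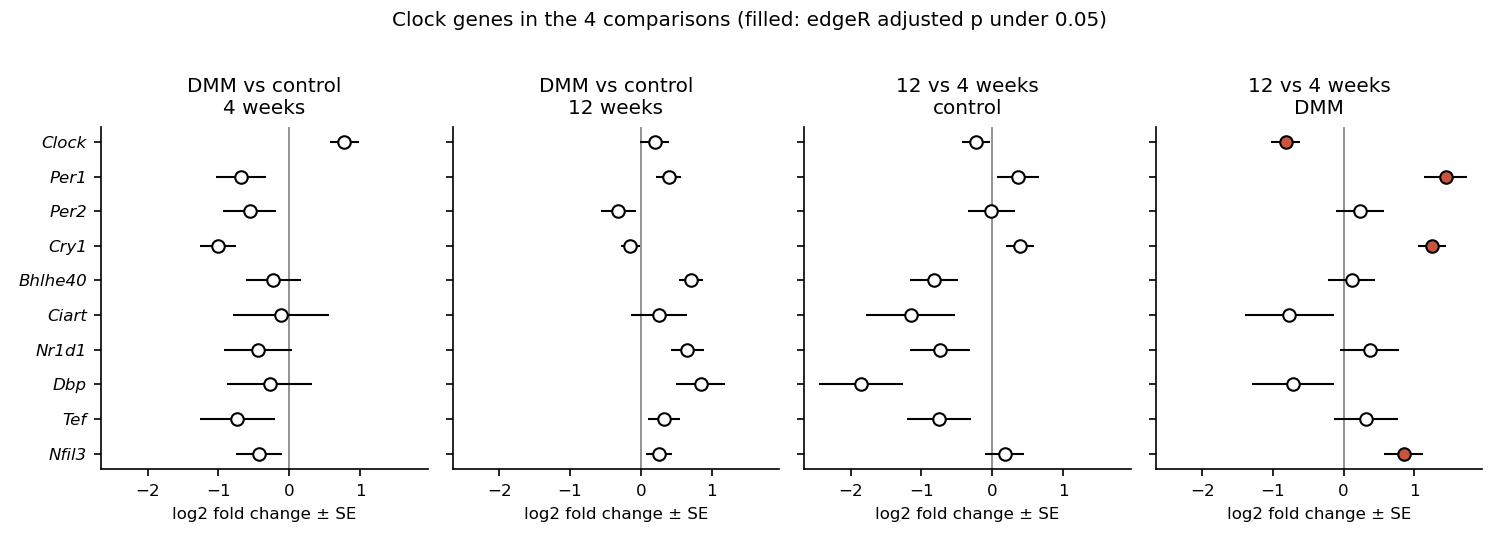
Log2 fold change with its SE (horizontal axis, edgeR, n = 3 libraries a group) of the 10 clock genes (vertical axis), DMM over control at 4 and 12 weeks and 12 over 4 weeks in each limb. Of the 10 points, 9 lie below 0 at 4 weeks and 8 above 0 at 12 weeks in the limb comparisons, and the filled points are the called genes, Cry1, Per1, Nfil3 and Clock in the DMM limb between weeks.

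Between weeks, the DMM limb changed in 4 of the 10 genes. Cry1, Per1 and Nfil3 rose from 4 to 12 weeks and Clock fell, at an adjusted p under 0.05 in edgeR. Thus 3 of the 10 genes were called higher, where 13.6% of transcripts were, and 1 of 10 lower, where 10.1% were. DESeq2 called the same 4 genes, beside 29.1% of transcripts. The libraries of each week came from other mice, so week and any batch of collection or sequencing cannot be told apart.

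Cry1 was at 7.50 to 13.1 CPM in the DMM libraries of week 4 and 21.5 to 25.7 CPM in those of week 12, a log2 fold change of 1.25 ± 0.20 (adjusted p = 0.00361, edgeR). Per1 was at 6.61 to 10.4 CPM and 19.4 to 27.4 CPM, a log2 fold change of 1.44 ± 0.30 (adjusted p = 0.00786, edgeR). The calls of Cry1 and Per1 were kept when each library was left out in turn. Clock fell by 0.82 ± 0.20 on the log2 scale (adjusted p = 0.0149, edgeR), with 14.4 to 18.0 CPM at 4 weeks and 8.10 to 11.1 CPM at 12 weeks. Without DMM replicate 3 of week 4 or of week 12, the adjusted p of Clock was 0.0509 and 0.0617 in edgeR. Nfil3 rose by 0.85 ± 0.28 (adjusted p = 0.0449, edgeR), with 7.13 to 13 CPM at 4 weeks and 13.4 to 20.1 CPM at 12 weeks. The Nfil3 call was kept only without 4-week DMM replicate 2, and each other library left out gave an adjusted p between 0.0588 and 0.212. The chondrocyte sum of the DMM limb was 18000 to 28600 CPM at 4 weeks and 30100 to 49100 CPM at 12 weeks, and the fibroblast and synovium sum was 14200 to 20000 and 7860 to 13000 CPM. The neutrophil and marrow sum was 12900 to 19200 and 20100 to 32700 CPM, that of the macrophage markers 429 to 661 and 306 to 350 CPM, that of the endothelium markers 131 to 145 and 73.7 to 108 CPM and that of the adipocyte markers 176 to 274 and 89.1 to 128 CPM, all without overlap and with no marker at 0. Their part in the change between weeks was not tested.

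In the control limb, none of the 10 genes was called between weeks in edgeR, where 5.69% of 21618 transcripts were. At an unadjusted p of 0.05, 2 of 10 passed (Dbp and Bhlhe40), beside 25.4% of transcripts. The log2 fold change of Dbp was -1.85 ± 0.59, with an adjusted p of 0.0854 in edgeR and 0.00882 in DESeq2. Dbp was the only member that DESeq2 called, beside 13.9% of transcripts. Bhlhe40 had a log2 fold change of -0.82 ± 0.33, with 254, 279 and 100.0 CPM at 4 weeks and 118, 136 and 103 CPM at 12 weeks. These falls were smaller with the 4-week control replicate 3 in the fit than without it. In that library Bhlhe40, Dbp, Nr1d1, Tef and Ciart were all lowest of their group. Nr1d1 was at 250 and 219 CPM in replicates 1 and 2 and 82.6 CPM in replicate 3. Without that library, Dbp, Bhlhe40, Ciart, Tef and Nr1d1 were called lower at 12 weeks, with log2 fold changes of -2.33, -1.19, -1.66, -1.17 and -1.11 and adjusted p from 0.00564 to 0.0425 in edgeR. That is 5 of the 10 genes, where 11.2% of transcripts were called lower in the same fit and 21.4% in either direction. Replicate 3 was the lowest 4-week control for these genes. Leaving it out enlarges their falls by itself, so that fit is a description only. Marker sums also separated the weeks without that library. The fibroblast and synovium sum was 10200 and 11900 CPM at 4 weeks and 3660 to 6520 CPM at 12 weeks, and the erythroid sum 5870 and 7850 CPM and 9030 to 12500 CPM. The neutrophil and marrow sum was 8880 and 14700 CPM and 25000 to 41900 CPM. The other 6 marker sums overlapped, no marker was at 0, and the part of these markers in the change was not tested. With all 3 controls of week 4, the neutrophil and marrow sum reached 25400 CPM at that week and overlapped with week 12.

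Whether the limb difference itself changed between weeks was tested as an interaction. No gene was called, as for all 21618 transcripts (0.0% in edgeR), while DESeq2 called none of the 10 genes and 0.0613% of transcripts. In edgeR 2 of the 10 genes had an unadjusted p under 0.05, beside 12.3% of transcripts. They were Cry1, with 0.85 ± 0.28 (unadjusted p = 0.00897, adjusted p = 0.405), and Per1, with 1.08 ± 0.42 (unadjusted p = 0.0242, adjusted p = 0.405). The interaction was above 0 in 9 of the 10 genes, all but Clock, with a median of 0.89 on the log2 scale beside 0.03 over all transcripts.

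Other genes of the clock were taken from a fixed list of 21. In the limb comparisons 20 of them were tested, and none was called at 4 or at 12 weeks in edgeR, with 2 and 3 genes at an unadjusted p under 0.05 (13.7% and 16.3% of transcripts). At 12 weeks 17 of 20 were above 0, with a median log2 fold change of 0.26, beside 8 of 10 members. At 4 weeks 12 of 20 were below 0, with a median of -0.04, close to the -0.03 of all transcripts, whereas 9 of 10 members were below 0 with a median of -0.43. Bhlhe41 was at 6.49, 9.05 and 8.75 CPM in 12-week controls and 13.3, 13.7 and 13.3 CPM after DMM, a log2 fold change of 0.74 ± 0.17 (adjusted p of 0.211 in edgeR and 0.0115 in DESeq2). Tspan4, a tetraspanin from the list of outputs, was at 64.8, 79.8 and 84.8 CPM and at 105, 117 and 150 CPM, a log2 fold change of 0.70 ± 0.17 (adjusted p of 0.211 in edgeR and 0.0157 in DESeq2). The limbs overlapped for neither gene. Limbs without overlap were found at 12 weeks in 7 of the 21 genes, beside 18.7% of transcripts, with Arntl2, Nr1d2 and Rora also higher and Csnk1d and Nampt lower in DMM. Rora, an activator of Arntl, measured 18.3, 23.8 and 22.1 CPM in controls and 36.2, 39.8 and 24.1 CPM after DMM (0.65 ± 0.21, adjusted p = 0.253). Arntl, whose repressor Nr1d1 was higher in every DMM library at 12 weeks, overlapped between limbs, with 22.1, 21.2 and 13 CPM in controls and 20.5, 25 and 14.5 CPM after DMM.

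At 4 weeks, the lowest p among the other repressors was that of Cry2, the paralog of Cry1. It was at 165, 131 and 62.7 CPM in controls and 83.1, 46.3 and 32.8 CPM after DMM, a log2 fold change of -1.13 ± 0.43 with an adjusted p of 0.34 in edgeR. Its limbs overlapped. Among kinases and ubiquitin ligases, outputs, activators and D-box factors, the lowest p at 4 weeks was that of Csnk1d, Usp2, Arntl and Hlf, each with an adjusted p of at least 0.385 in edgeR. Only Rorb, at 0.43 CPM or less in every library, had limbs without overlap at 4 weeks, 1 of 21 genes beside 21.0% of transcripts. Between weeks, only Csnk1d, a kinase that phosphorylates Period proteins, was called, higher at 12 weeks in the DMM limb by 0.72 ± 0.17 (adjusted p = 0.013, edgeR). That is 1 of the 21 genes, where 13.6% of transcripts were called higher. Without 4-week DMM replicate 2 or 3 the adjusted p of Csnk1d was 0.0629 and 0.0616 in edgeR. It was at 91.6, 72.0 and 58.9 CPM at 4 weeks and at 123, 120.0 and 124 CPM at 12 weeks. In the control limb 9 of the 21 genes had an unadjusted p under 0.05 between weeks, beside 25.4% of transcripts, and none was called, beside 5.69%. The interaction called none of the 21 genes in edgeR, as for all transcripts (0.0%), with 3 at an unadjusted p under 0.05, beside 12.3% of transcripts.

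Per1 and some outputs of the clock also respond directly to hormones and to handling of tissue, so lists of 8 genes induced by glucocorticoids and 10 immediate early genes were measured. In edgeR neither list had a called gene in a limb comparison. DESeq2 called Pdk4 and Nr4a1 lower in DMM at 4 weeks (adjusted p of 0.000888 and 0.0148), 2 of the 18 genes beside 3.44% of transcripts, and none at 12 weeks, beside 4.24%. The immediate early genes were below 0 at 4 weeks in 10 of 10, with a median log2 fold change of -0.59, and above 0 at 12 weeks in 9 of 10, with a median of 0.59. At 4 weeks Pdk4, Nr4a1 and Zfp36 were lower in every DMM library than in every control, with log2 fold changes of -1.69, -1.50 and -0.66. They were 3 of the 18 genes of both lists, beside 21.0% of transcripts. At 12 weeks Klf9 and Zbtb16 were higher in every DMM library, with 0.86 and 0.35, which is 2 of the 18 genes beside 18.7% of transcripts. The glucocorticoid list was below 0 in 6 of 8 genes at 4 weeks and above 0 in 8 of 8 at 12 weeks. In the DMM limb all 10 immediate early genes were higher at 12 than at 4 weeks, and 5 were called (Fos, Jun, Ier2, Nr4a1 and Zfp36), beside 13.6% of transcripts called higher. The glucocorticoid-induced phosphatase gene Dusp1 was called higher in the same comparison (1.80 ± 0.43 on the log2 scale, adjusted p = 0.0137, edgeR). In the control limb Klf9, a target of glucocorticoids and of the clock, was called lower at 12 weeks (-1.46 ± 0.36, adjusted p = 0.0358, edgeR). The part of a stress or handling response in the clock genes was not tested.

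DNA methylation was measured by reduced representation bisulfite sequencing, with oxidation (oxBS) to read 5mC alone and without it to read 5mC and 5hmC together. Within 1000 bp of the start, the promoters of all 10 genes were covered at least in part, and the cytosines read were nearly free of 5mC. Their number ran from 9 (Per1) to 272 (Clock) at 4 weeks and from 6 (Per1) to 193 (Clock) at 12 weeks. The window of Per1 held 54 CpGs. The level in single libraries was 0.0% to 1.92% at 4 weeks and 0.0% to 1.63% at 12 weeks, with medians of 0.722% and 0.35%. All covered promoters had medians of 0.799% and 0.466%, and 78.6% and 79.1% of them were under 2%. The percentage of mitochondrial cytosines read as methylated is a measure of failed conversion. In the oxBS libraries it was 0.530% to 0.742% at 4 weeks and 0.284% to 0.351% at 12 weeks. The promoter medians of the 10 genes were thus at the level of their week, and part of the promoter values were at or below it. None of the 10 promoters differed between limbs by limma, at an adjusted p (0.0% of all promoters at both weeks) or at an unadjusted p of 0.05 (3.97% and 9.11% of promoters). Limbs without overlap were found in 1 of 10 promoters at 4 weeks (9.48% of all promoters) and 2 of 10 at 12 weeks (16.4%), with an exact permutation p of 0.1 for each. Cry1 was at 0.693%, 0.748% and 0.801% in 4-week controls and 0.567%, 0.473% and 0.671% after DMM. At 12 weeks Dbp was higher in DMM, at 0.182%, 0.159% and 0.156% and at 0.255%, 0.311% and 0.355%, and Ciart lower, at 0.536%, 0.936% and 0.747% and at 0.508%, 0.417% and 0.46%. The 5hmC estimates, taken as the difference between libraries without and with oxidation, ran from -1.92 to 1.09 percentage points in single libraries at 4 weeks and from -1.63 to 0.816 at 12 weeks. Their limb differences, DMM minus control, ran from -0.93 (Per1, 9 cytosines) to 0.233 percentage points (Nr1d1) at 4 weeks. At 12 weeks they ran from -0.334 (Bhlhe40) to 0.794 (Per1, 6 cytosines). None was called at an adjusted p (0.0% of promoters at both weeks). At an unadjusted p of 0.05, 0 of 10 passed at 4 weeks (3.99% of promoters) and 1 of 10, Ciart, at 12 weeks (4.92% of promoters), with an adjusted p of 0.985 in limma. The 5hmC estimates of the limbs did not overlap for Nr1d1 at 4 weeks and Ciart at 12 weeks, both higher in DMM, 1 of 10 promoters at each week beside 9.66% and 9.98% of all promoters. The file without oxidation of 12-week DMM replicate 1 carries the number of another replicate in its name, and without that replicate 0 of 10 passed (4.38% of promoters).

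Inside the genes, at least 1000 bp past the start, 5mC could be measured in 7 of the 10. Tef and Ciart had fewer than 5 cytosines with 10 reads in every library, and Bhlhe40 had none. The level differed by gene. Clock was at 91.9% to 94.3% in the group means, Per1 at 76.9% to 79.9%, Per2 at 73.8% to 74.9% and Cry1 at 58.9% to 64.7%. Nfil3 was at 11.1% to 13.1%, Nr1d1 at 6.25% to 16.3% and Dbp at 0.451% to 0.943%.

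The body of Nr1d1 had lower 5mC values in the DMM limb, a difference that was not called. At 12 weeks, its 45 cytosines were methylated at 16.8%, 14.0% and 18.2% in controls and 7.53%, 11.4% and 9.92% after DMM, from 1372 to 3893 reads a library. The limbs did not overlap (16.3% ± 2.15 and 9.62% ± 1.97, SD, n = 3). The difference in log2 odds, DMM minus control, was -0.89 ± 0.20 (SE), with an unadjusted p of 0.00263 and an adjusted p of 0.104 in limma, so the difference was not called. At 4 weeks the 55 cytosines were methylated at 16.1%, 5.99% and 9.29% in controls and 7.58%, 4.39% and 6.77% after DMM. These values overlapped, with an adjusted p of 0.717 in limma. Because a file of 12-week DMM replicate 1 is named for another replicate, its forms were compared. Over the cytosines shared by its 2 files, the mean level was 32.4% without oxidation and 29.9% with it, and oxidation gave the lower mean in all 12 pairs. Without that replicate the difference in log2 odds of Nr1d1 at 12 weeks was -0.70 ± 0.18, with an adjusted p of 0.236 in limma. With the file labelled as not oxidized in place of the oxidized one, the replicate was at 12.8% and the difference was -0.60 ± 0.19, with an adjusted p of 0.534 in limma. A file without oxidation also reads 5hmC, so if the label is right this fit mixes unlike forms. It is a description only.

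In Nr1d1, 18 cytosines had a mean of at least 10% methylation over the 6 libraries of 12 weeks, 11 in exons and 7 in introns. They lay from 2180 to 7141 bp past the start (chr11:98768236-98773197, GRCm38). Nr1d1 shares 1075 bp with Thra on the opposite strand, so a cytosine in that stretch belongs to both genes. The cytosines from chr11:98768236 to chr11:98768333 lie less than 1075 bp from the 3′ end of Nr1d1. If the shared stretch is at that end, their 5mC is that of Thra as much as of Nr1d1. All 18 were lower in the DMM limb, with a median difference of -13.9 percentage points, and in 9 every DMM library was below every control. At 4 weeks 20 of 20 such cytosines were lower, with a median difference of -12.4 percentage points, and 2 had every DMM library below every control. These 4-week values leaned on control replicate 1, without which the log2 odds difference of the body was -0.31 in place of -0.72. At chr11:98768333, for example, control replicates 2 and 3 were at 18.2% and 13.3%, below the DMM mean of 22.4%. Of all cytosines inside genes with a mean of at least 10%, 60.1% were lower in DMM at 12 weeks and 58.7% at 4 weeks. The DMM libraries were all below the controls in 12.1% and 5.73%. In Nfil3 at 12 weeks, 14 of 14 such cytosines were lower in DMM, with a median difference of -5.11 percentage points, and 4 had every DMM library below every control. At 4 weeks 7 of 15 were lower in Nfil3. The other genes were mixed, with 11 of 19 lower in Per1, 13 of 24 in Per2, 7 of 12 in Cry1 and 4 of 10 in Clock at 12 weeks, and 8 of 19, 10 of 24, 8 of 12 and 3 of 10 at 4 weeks. Ciart and Tef had at most 2 such cytosines at either week, and Dbp and Bhlhe40 none. Among the cytosines of Nr1d1 with a mean of at least 10%, the one nearest the start, chr11:98773197 in an intron, is given as an example. It was chosen after its values were seen. It was methylated at 35.6%, 20% and 36.4% in controls and 7.14%, 4.76% and 4.88% after DMM at 12 weeks. At 4 weeks its values overlapped, at 16.0%, 8.05% and 19.2% in controls and 13.9%, 0.0% and 4.26% after DMM. The cytosines on both strands of a CpG were counted separately, as at chr11:98768314 and chr11:98768315 at 4 weeks, so these are not counts of CpGs. Neighboring cytosines are also read on the same fragments, so they are not independent. The RNA of Nr1d1 that was higher in the DMM limb at 12 weeks came from other mice.

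**Figure D4:**
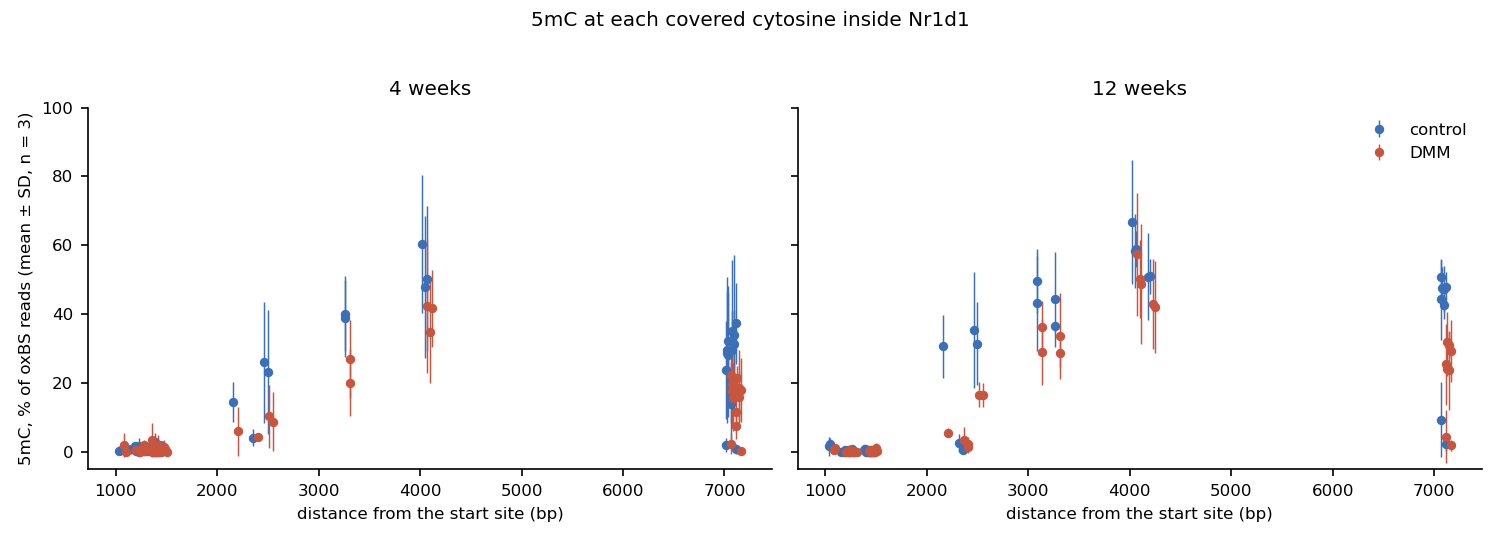
5mC of single cytosines inside Nr1d1 (vertical axis, percent) against the distance from its start in bp (horizontal axis), at 4 and 12 weeks. Points are means of 3 oxBS libraries of a limb with SD, and the limbs are drawn slightly apart along the horizontal axis. The DMM points lie below the control points at all 20 cytosines with a mean of at least 10% over the 6 libraries at 4 weeks and at all 18 at 12 weeks. Those 7044 to 7141 bp from the start may also belong to Thra. The 4-week control means leaned on replicate 1, without which the log2 odds difference of the gene body was -0.31 in place of -0.72.

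Among the other gene bodies, Nfil3 was at 13.7%, 12.0% and 13.5% in 12-week controls and 10.8%, 11.6% and 11% after DMM, without overlap (adjusted p = 0.29, limma). Clock was at 90.2%, 92.8% and 92.7% in 4-week controls and 92.9%, 93.5% and 93.7% after DMM, also without overlap (adjusted p = 0.717, limma). Limbs without overlap were thus found in 1 of 7 genes at 4 weeks and 2 of 7 at 12 weeks, where 8.26% and 25.5% of all gene bodies had none. No gene body was called at an adjusted p at either week (0.0% of all bodies, limma). At an unadjusted p of 0.05, 0 of 7 passed at 4 weeks (4.08% of bodies) and 1 of 7, Nr1d1, at 12 weeks (18.3% of bodies). Per1, Per2, Cry1 and Dbp overlapped between limbs at both weeks.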

How the data were processed

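RNA was counted in 12 libraries, 3 for each limb and week. The authors aligned reads with STAR to mm10 and counted them per RefSeq transcript with featureCounts, and they deposited raw counts. The labels describe poly(A)-selected libraries, while the published methods describe SMART-Seq v4 and Nextera XT libraries. Methylation was deposited by the authors as Bismark calls for cytosines with at least 10 reads, with the coverage and the percent methylated and unmethylated. Their base calling used CASAVA 2.17. No column of the authors' own comparisons was used. Symbols were matched to RefSeq for 29472 rows of counts, with 17 more named from the supplementary table, and 559 rows had none.

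Counts were tested with edgeR 4.0.16 (R 4.3.3, TMM scaling, filterByExpr, robust quasi-likelihood), each limb comparison on the 6 libraries of its week, and the comparisons between weeks and the interaction on all 12. P-values were adjusted by Benjamini-Hochberg over all transcripts, with a threshold of 0.05. DESeq2 1.42.0 was an alternative, as were other scalings and filters, a replicate block and each library left out. CPM were computed with TMM library sizes. Single values were compared by two-sided exact permutation tests (Python 3.11.15). Methylated reads were rebuilt from coverage and percent, summed per promoter or gene body with at least 5 cytosines, and tested with limma 3.58.1 on log2 of methylated over unmethylated reads, each plus 1. Whether the replicate numbers pair the limbs is not given in the sources used here, and the main tests did not pair them. The gene body test was added after the promoter results were seen. The tests were tried on simulated data. The 10 genes and all lists were chosen with earlier results of these data known. The genes named were the 10 members, genes of the other lists that were called, did not overlap between limbs or had the lowest p of their role, and the 5 genes outside those lists most correlated with Dbp at a mean of at least 1 CPM. The result of 1 gene of the lists is not reported here. A cytosine can rest on 10 reads, and whether reads carry molecular identifiers is not given in the sources used here.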

Additional observations from a re-analysis of the deposited data

How the results depend on the processing

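The number of the 10 genes called at 4 weeks between limbs was 0 in edgeR, 2 in DESeq2 and 2 at an unadjusted p. At 12 weeks it was 0, 1 and 3, 3 with the replicate number as a block and 0 to 1 with each library left out. Between weeks in the control limb it was 0, with 1 in DESeq2, 2 unadjusted and 0 to 5 with a library left out, and in the DMM limb 4, with 2 to 4. The interaction had 0, and 2 unadjusted.

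Of the other clock genes, 0 were called at 4 weeks, against 1 with the block and 2 unadjusted. At 12 weeks 2 were called in DESeq2, 1 with the block and 3 unadjusted. In the control limb between weeks 3 were called in DESeq2, 9 unadjusted and 0 to 8 with a library left out. In the DMM limb 1 was called, against 3 in DESeq2, 2 without the filter, 4 unadjusted and 0 to 2 with a library left out. The interaction had 3 unadjusted.

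Over all transcripts, 16 of 21140 were called at 4 weeks. DESeq2 called 747, a minimum of 10 counts 0, the block 354, 1 transcript a gene 0, a fit on all 12 libraries 35, the unadjusted p 2891, and leaving out a library 0 to 118. At 12 weeks 1 of 21010 was called, against 866 in DESeq2, 56 without the filter, 734 with the block, 3430 unadjusted and 0 to 860 with a library left out. The block was fitted on the same 21140 and 21010 transcripts as the main test. In the control limb 1229 were called, against 3001, 5489 unadjusted and 37 to 4685. In the DMM limb 5109 were called, 8089 unadjusted and 1682 to 6396. The interaction had 0, against 16 in DESeq2, 2656 unadjusted and 0 to 3. The causes were not tested.

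The sign of the log2 fold change turned for Ciart at 4 weeks with the block (0.0249). With a library left out, the values at 4 weeks ran from -0.75 to 0.26 for Dbp, -0.62 to 0.26 for Ciart and -0.58 to 0.016 for Bhlhe40, and at 12 weeks from -0.067 to 0.61 for Ciart. Between weeks in controls they ran from -0.26 to 0.25 for Per2 and -0.052 to 0.43 for Nfil3, and in the DMM limb from -0.022 to 0.66 for Per2 and -0.13 to 0.25 for Bhlhe40. In the interaction they ran from -0.015 to 0.67 for Per2 and -0.0071 to 0.85 for Ciart. Of 660 such values over 50 pairs of gene and comparison, 619 kept direction and side of the threshold, 10 lost a call, 13 gained one and 18 turned sign. With the same replicate number as a pair, the correlations of limb deviations were 0.391, -0.418 and 0.101 at 4 weeks and -0.608, 0.424 and -0.268 at 12 weeks. With mixed signs and few pools, these values cannot decide whether the numbers pair the limbs. The block called Nr1d1, Dbp and Bhlhe40 at 12 weeks (adjusted p of 0.0433, 0.0352 and 0.0364, edgeR). Of the hormone and immediate early lists, it called Pdk4 and Nr4a1 at 4 weeks and Sgk1, Errfi1 and Fos at 12 weeks. The numbers that the block called over all transcripts, given above, stand beside these calls. No promoter of the 10 genes was called under any alternative, and 9 of 79 promoter levels moved by more than 1 SD.

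Chosen after the data were seen, the log2 odds of 5mC inside the genes were fitted again with each library left out, the block and the exchange of the files of 12-week DMM replicate 1. No gene body of the 10 genes was called in any of these. The exchange turned the sign of Per1 (0.1414) and Per2 (0.178) at 12 weeks. It sets a file labelled as not oxidized, which also reads 5hmC, beside oxidized files, so its values are descriptions only. With a library left out, values at 4 weeks ran from -0.1063 to 0.1195 for Per1, -0.0393 to 0.0775 for Per2 and -0.1487 to 0.0058 for Nfil3. At 12 weeks they ran from -0.1377 to 0.0084 for Per1, -0.1406 to 0.034 for Per2, -0.3004 to 0.1392 for Cry1, -0.0028 to 0.1258 for Clock and -0.4908 to 0.0854 for Dbp. The 12-week value of Nr1d1 ran from -1.04 to -0.70. Its 4-week value ran from -1.10 to -0.31, and was nearest 0 when the first control library was left out.

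With 3 pools a group, a single pool such as the 4-week control replicate 3 weighs heavily on a mean. The 4-week DMM libraries had 33105311 to 42964188 counts and the 4-week control libraries 47843461 to 50066012. Depth thus separated the limbs at that week, and its part in the limb differences was not tested. Ciart rested on as few as 67 counts in a library.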
